A study of Mus musculus with 6 samples.

Results

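The genes described here encode the receptors for interleukin-7 and interleukin-2, the thymic stromal lymphopoietin receptor, and the JAK kinases and STAT5 proteins that carry their signal. They were chosen by name, with earlier results of these data known. The list held 10 genes, and each was read from the probe set that names it alone, taking the brightest where a gene had several. Of the 10 listed genes, 8 had such a probe set among the 19938 genes tested, and 0 of the 8 had a second one. The 8 were the receptor genes Il7r, Il2ra, Il2rb and Crlf2, the kinase genes Jak1 and Jak2, and the transcription factor genes Stat5a and Stat5b. The other 2, Il2rg and Jak3, were not analysed here: the annotation used pairs no probe set with Il2rg, and the probe set that names Jak3 names another gene as well.

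All 6 arrays came from pre-B cells of the mouse strain 129P2/OlaHsd that had been transformed with BCR-ABL1, the fusion kinase of Philadelphia chromosome-positive acute lymphoblastic leukaemia. Every sample carried the genotype Ptpn6 +/fl, that is 1 floxed allele of the gene for the phosphatase SHP-1 beside an unfloxed allele, so the controls carried the floxed allele too. Cells were transduced with PMIP-ERT2, which has no recombinase, or with PMIP-CRE-ERT2, whose Cre recombinase becomes active in the presence of tamoxifen, and puromycin-resistant cells were used. All received 4OH-Tamoxifen at 0.5 micromolar for 2 days, and each vector group had 3 arrays. With 1 unfloxed allele in every sample, Cre can remove at most the other copy, and the sources used here do not say whether the lines were clones, pools or separate cultures.

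Interleukin-7 is the main growth factor of mouse pre-B cells. Its receptor pairs the chain encoded by Il7r with the common gamma chain; JAK1 and JAK3 bound to these chains phosphorylate STAT5A and STAT5B, which then enter the nucleus and switch on survival genes and their own inhibitors. The same gamma chain serves the interleukin-2 receptor, in which Il2ra encodes the CD25 chain that raises affinity and Il2rb the beta chain that signals, while Crlf2 encodes the chain that joins the interleukin-7 receptor alpha chain to bind thymic stromal lymphopoietin. BCR-ABL1 is known to phosphorylate STAT5 without cytokine, and CD25 is a surface marker of pre-B cells and of many Philadelphia chromosome-positive leukaemias.

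The expression of Il7r was lower and that of Il2ra higher in the CRE-ERT2 arrays, and the other 6 measured genes did not pass the test. The promoters of these genes are shown here because they were the members that changed, together with that of Cish, a STAT5 target with a result below. Each sequence runs 5′ to 3′ from 250 bases before to 50 bases after the RefSeq start site in GRCm38.p6. Capitals mark matches on either strand to the STAT motif TTCNNNGAA, the ETS motif GGAAGT, the RUNX motif TGTGGT, the FOXO motif GTAAACA or the NF-kB consensus.
Il7r, chr15:9529827-9530126, minus strand: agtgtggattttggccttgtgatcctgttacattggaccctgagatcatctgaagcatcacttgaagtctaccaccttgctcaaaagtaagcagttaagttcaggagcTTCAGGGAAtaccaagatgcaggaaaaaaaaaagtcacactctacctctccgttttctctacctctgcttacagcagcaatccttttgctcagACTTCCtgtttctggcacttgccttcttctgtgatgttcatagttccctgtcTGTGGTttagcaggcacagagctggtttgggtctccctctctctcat
Il2ra, chr2:11642542-11642841, plus strand: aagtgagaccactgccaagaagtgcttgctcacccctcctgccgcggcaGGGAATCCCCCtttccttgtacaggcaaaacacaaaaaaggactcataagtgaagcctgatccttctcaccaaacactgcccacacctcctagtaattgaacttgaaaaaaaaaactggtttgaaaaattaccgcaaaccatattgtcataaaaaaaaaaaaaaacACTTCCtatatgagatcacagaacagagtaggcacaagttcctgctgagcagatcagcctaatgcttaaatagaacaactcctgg
Cish, chr9:107296409-107296708, plus strand: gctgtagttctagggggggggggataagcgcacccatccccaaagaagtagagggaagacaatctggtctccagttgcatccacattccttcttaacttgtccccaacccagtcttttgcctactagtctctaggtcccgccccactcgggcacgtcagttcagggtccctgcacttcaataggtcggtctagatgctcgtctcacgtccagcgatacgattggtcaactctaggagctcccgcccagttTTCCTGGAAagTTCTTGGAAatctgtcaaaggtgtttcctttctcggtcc

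The Il7r window held 1 STAT match, TTCAGGGAA, starting 142 bases before the start site. It also held 1 ETS match, 49 bases before the start site, and 1 RUNX match just after it. In the Il2ra window there were overlapping matches to the NF-kB consensus in GGGAATCCCC and the base after it, starting 201 bases before the start site, and 1 ETS match 35 bases before it. The Cish window held 2 STAT matches, TTCCTGGAA and TTCTTGGAA, at the start site and just after it. Across the 32851 promoter windows of the same length, 8.30% held a STAT match, 23.8% an ETS match, 16.8% a RUNX match, 3.65% a FOXO match and 4.51% an NF-kB match. Promoters were found for 9 of the 10 listed genes in 11 windows, of which 1 held a STAT match, 4 an ETS match, 4 a RUNX match, 2 an NF-kB match and 0 a FOXO match. A match describes letters in a window and was not tested against the expression data.

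Il7r, whose product is the ligand-binding chain for interleukin-7, had log2 expression of 12.97, 13.01 and 13.06 on the ERT2 arrays and 12.60, 12.51 and 12.63 on the CRE-ERT2 arrays. All 3 CRE-ERT2 values lay below all 3 ERT2 values, with a gap of 0.33 between the groups. The group means were 13.01 ± 0.05 and 12.58 ± 0.06 (SD, n = 3 each). Il7r thus fell by 0.43 on the log2 scale (SE 0.07, 95% confidence interval -0.59 to -0.28). On a linear scale the CRE-ERT2 level was 0.741 of the ERT2 level (0.664 to 0.826), and the adjusted p was 0.00349 with limma over all genes. In bulk RNA such as this, fewer cells that express a gene and less of its RNA per cell cannot be told apart.

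Il2ra, which encodes CD25, moved the other way. Its log2 expression was 11.57, 11.59 and 11.51 on the ERT2 arrays and 12.20, 12.12 and 12.23 on the CRE-ERT2 arrays. The groups again did not overlap, and the gap between them was 0.53. The means were 11.56 ± 0.04 and 12.19 ± 0.06 (SD, n = 3 each), a rise of 0.63 (SE 0.07, 95% confidence interval 0.47 to 0.78). This was 1.55-fold (1.39 to 1.72), with an adjusted p of 0.000174 with limma.

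**Figure D1:**
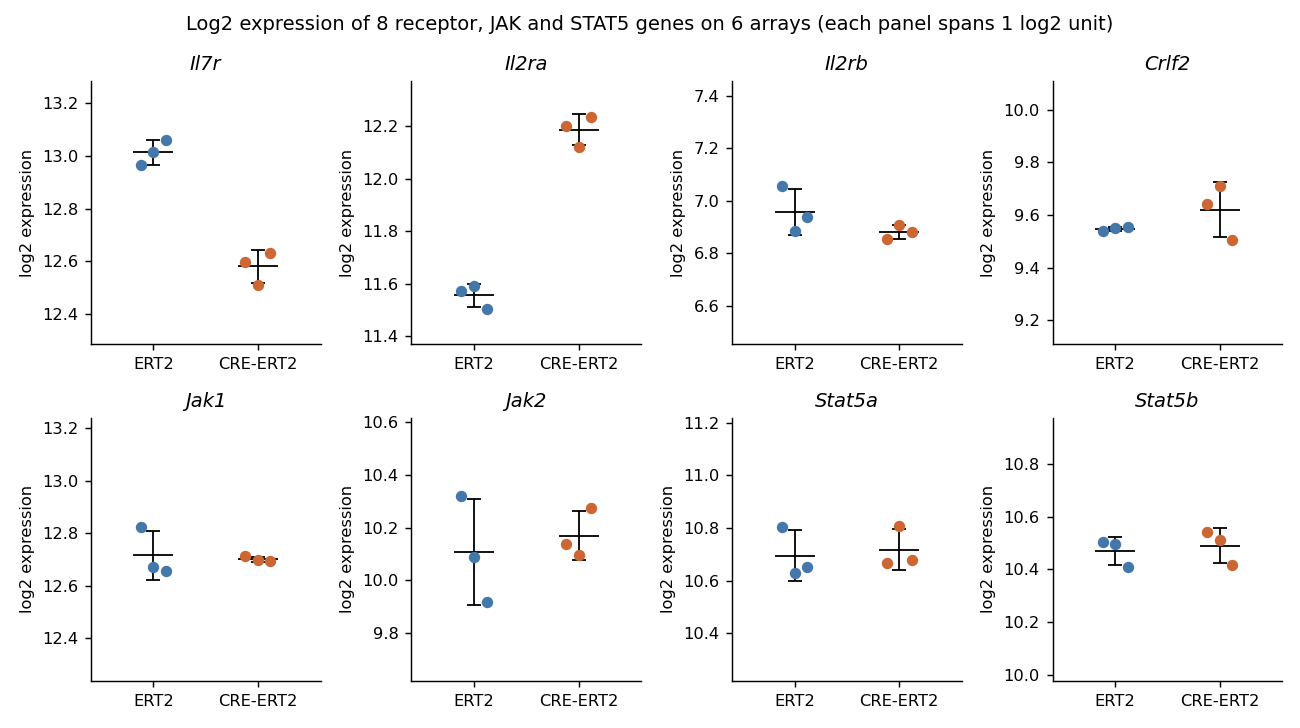
Log2 expression (vertical axes, each spanning 1 log2 unit) of the 8 measured genes on the 3 ERT2 and 3 CRE-ERT2 arrays; points are arrays and black bars the mean and SD of a group. The groups are apart for Il7r and Il2ra and overlap for the other 6 genes.

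Over all genes tested, 914 of 19938, or 4.58%, passed at an adjusted p under 0.05 with limma, 2.30% higher and 2.28% lower in the CRE-ERT2 arrays. Of the 8 measured members, 2 passed, 1 in each direction. After a further quantile normalization the direction of calls among all genes moved to 543 higher and 349 lower, against 459 and 455 as deposited, and the genes passing were 560 without ERT2 replicate 1, 574 without CRE-ERT2 replicate 2 and 453 without CRE-ERT2 replicate 3. The rise of Il2ra ranked 124 among all genes and the fall of Il7r ranked 172, counting from the largest change in that direction. Groups did not overlap for 2 of the 8 members, or 25%, which is near the 22.5% of all genes whose groups did not overlap. A two-sided exact permutation test gave p = 0.1 for Il7r and for Il2ra, the smallest value that 3 arrays against 3 allow.

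The other receptor chains did not pass. Il2rb, the signalling beta chain of the interleukin-2 receptor, had log2 expression of 7.06, 6.88 and 6.94 on the ERT2 arrays and 6.85, 6.91 and 6.88 on the CRE-ERT2 arrays. These groups overlapped, and the difference was -0.08 (95% confidence interval -0.24 to 0.08, limma adjusted p = 0.706). The Il2rb probe set was among the dimmest 33.3% of genes by mean level, and since signal over background is unknown here, a change in Il2rb may be compressed.

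Crlf2, the thymic stromal lymphopoietin receptor chain, had values of 9.54, 9.55 and 9.55 on the ERT2 arrays and 9.64, 9.71 and 9.51 on the CRE-ERT2 arrays. CRE-ERT2 replicate 3 was the lowest of all 6 and the other CRE-ERT2 arrays were the highest. The difference was 0.07 (-0.09 to 0.24, limma adjusted p = 0.749). Of the 4 receptor chains measured, Il7r and Il2ra passed and Il2rb and Crlf2 did not; whether these changes differ from each other was not tested.

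The kinases came next in the pathway. Jak1, which binds the interleukin-7 receptor alpha chain and the interleukin-2 receptor beta chain, had log2 expression of 12.82, 12.67 and 12.66 on the ERT2 arrays and 12.71, 12.70 and 12.69 on the CRE-ERT2 arrays. The 3 CRE-ERT2 values lay within the ERT2 range, and the difference was -0.01 (-0.18 to 0.15, limma adjusted p = 0.968).

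Jak2 encodes the kinase of the erythropoietin and interleukin-3 receptors and the partner of the thymic stromal lymphopoietin receptor. Among the ERT2 arrays it varied most of the measured members. Its values were 10.32, 10.09 and 9.92 on the ERT2 arrays, with an SD of 0.20, and 10.14, 10.10 and 10.28 on the CRE-ERT2 arrays, with an SD of 0.09. ERT2 replicate 1 was the highest and ERT2 replicate 3 the lowest of the 6 arrays. The difference was 0.06 (-0.15 to 0.28, limma adjusted p = 0.863), and its upper limit corresponds to 1.21-fold.

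Stat5a and Stat5b, the transcription factors at the end of the pathway, had nearly equal differences. Stat5a stood at 10.81, 10.63 and 10.65 on the ERT2 arrays and 10.67, 10.81 and 10.68 on the CRE-ERT2 arrays. Its difference was 0.02 (-0.15 to 0.19, limma adjusted p = 0.949). Stat5b stood at 10.50, 10.50 and 10.41 on the ERT2 arrays and 10.54, 10.51 and 10.42 on the CRE-ERT2 arrays, a difference of 0.02 (-0.14 to 0.18, limma adjusted p = 0.950). Both genes had overlapping groups. For all 6 genes that did not pass, the 95% confidence intervals lay between a ratio of 0.848 and one of 1.21, so changes of the size seen in Il2ra and Il7r lie outside each of them on the scale of the array values. For Il2rb, whose dim signal may compress a change, this does not exclude such a change in its RNA. Exact permutation tests of these 6 genes gave p between 0.2 and 1. RNA levels do not measure phosphorylation of the JAK or STAT5 proteins.

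**Figure D2:**
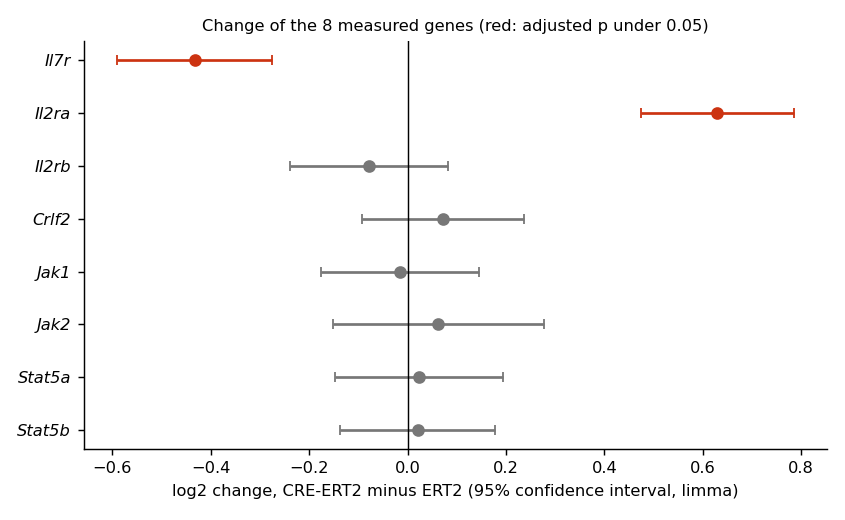
Log2 change, CRE-ERT2 minus ERT2 (horizontal axis), with its 95% confidence interval from limma for the 8 measured genes; red marks an adjusted p under 0.05. Il2ra at 0.63 and Il7r at -0.43 lie away from 0, and the intervals of the other 6 genes include 0.

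Among the ERT2 arrays, replicate 3 had the highest Il7r value and the lowest Il2ra value. Among the CRE-ERT2 arrays, replicate 3 had the highest value of both and replicate 2 the lowest of both. The range within a group was at most 0.12 in Il7r and 0.11 in Il2ra, against changes of -0.43 and 0.63 between groups.

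The genes with the profiles most like these were found among 17115 genes with a proper symbol, by the root mean square distance between log2 values centred on each gene's mean over the 6 arrays. Closest to Il7r were Syce2, a synaptonemal complex gene (distance 0.027, change -0.47), the centromere protein gene Cenpv (0.040, -0.41) and the myosin light chain gene Myl4 (0.046, -0.40). Nearest to Il2ra were Jun, an AP-1 transcription factor gene (distance 0.044, change 0.67), the lipid phosphatase gene Plpp3 (0.045, 0.56) and the neuron navigator gene Nav2 (0.050, 0.59). These 6 arrays hold 1 contrast, so any gene with a change of the same size and a small spread has such a profile.

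Other genes of the pathway were read from 7 lists with 108 genes in all, of which 102 were measured. The lists were chosen with earlier results of these data known, so shares within them do not test the lists. Of the 102 measured genes, 17 passed with limma, or 16.7%, against 4.58% of all genes, and 13 were higher and 4 lower. The count was 7 without CRE-ERT2 replicate 3 and 11 without CRE-ERT2 replicate 2, and 3 when all probe sets were tested. The median log2 change of all genes was -0.03.

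Among 12 receptor partners and ligands of the gamma chain and thymic stromal lymphopoietin receptor family, 2 rose, 1 fell and 9 missed the threshold. The list median was 0.02. Il21r, which encodes the interleukin-21 receptor and like Il2ra works with the gamma chain, had log2 expression of 8.74, 8.82 and 8.76 on the ERT2 arrays and 9.54, 9.52 and 9.38 on the CRE-ERT2 arrays. Every CRE-ERT2 value was above every ERT2 value, and the rise of 0.71 was 1.63-fold (limma adjusted p = 9.5e-05). Il4ra, the interleukin-4 receptor alpha chain gene, rose by 0.60 (adjusted p = 0.00419 with limma). Il13ra1, a receptor chain for interleukin-13 that also pairs with the interleukin-4 chain, fell by 0.52 (limma adjusted p = 0.00793). With all probe sets tested, Il4ra (limma adjusted p = 0.103) and Il13ra1 (0.128) did not pass, and Il13ra1 also lost its call without ERT2 replicate 1 (0.0610) or CRE-ERT2 replicate 3 (0.0574).

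Among 23 other receptors that use JAK kinases, 7 rose, 0 fell and 16 missed the threshold. The list median was 0.07. Higher calls made up 30.4% of this list, chosen with earlier results of these data known, and 2.30% of all genes. The largest was Il10ra, the interleukin-10 receptor alpha chain gene, at 9.95, 10.14 and 10.03 on the ERT2 arrays and 10.69, 10.62 and 10.58 on the CRE-ERT2 arrays. These groups did not overlap, and the rise was 0.59 (limma adjusted p = 0.000513). Il5ra (0.50), Il10rb (0.37) and Ifnar1 (0.35), which encode chains of the interleukin-5, interleukin-10 and type I interferon receptors, rose as well. Il5ra was 1 of 7 genes of the 23 in this list that were among the dimmest 33.3% of all genes, so its change may be compressed. The count of genes that rose was 4 without ERT2 replicate 2, 3 without CRE-ERT2 replicate 1 or 2, and 1 without CRE-ERT2 replicate 3. It was also 1 when all probe sets were tested. With the dimmest 33.3% of genes left out, 6 of 16 genes of the list rose and 1 fell, against 540 and 720 of all 13292 genes tested. Without ERT2 replicate 3, 6 genes of the list rose and 1 fell. Il10rb lost its call in 6 of 14 alternatives, with limma adjusted p from 0.0645 to 0.210. Il5ra and Ifnar1 lost theirs without CRE-ERT2 replicate 3 (0.0571 and 0.0585) and with all probe sets tested (0.108 and 0.0636).

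Of the 5 other JAK and STAT genes measured, 0 passed with limma and 1 had an unadjusted p under 0.05, and their median was 0.06. Those with the smallest p were Stat2, the interferon-response STAT, at 0.18 (limma adjusted p = 0.252), and Stat4, which acts after interleukin-12, at 0.08 (limma adjusted p = 0.721).

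Among 20 brakes on JAK-STAT signalling, 2 rose, 0 fell and 18 missed the threshold. The list median was 0.01. Both are direct STAT5 targets that inhibit the pathway. Cish, whose product blocks STAT5 docking at the receptor, had log2 expression of 10.96, 10.83 and 10.72 on the ERT2 arrays and 11.35, 11.34 and 11.13 on the CRE-ERT2 arrays, a rise of 0.44 (limma adjusted p = 0.0122). Socs1, whose product inhibits JAK kinases, had 9.77, 9.86 and 9.95 on the ERT2 arrays and 10.34, 10.37 and 10.21 on the CRE-ERT2 arrays, a rise of 0.45 (limma adjusted p = 0.00473). Neither gene had overlapping groups. Cish did not pass without CRE-ERT2 replicate 1 (limma adjusted p = 0.0628), and Cish (0.130) and Socs1 (0.0680) did not pass with all probe sets tested.

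Calls among textbook STAT5 targets went both ways in the fit as reported, but not under every alternative. Of 18 measured, 3 rose, 1 fell and 14 missed the threshold. After a further quantile normalization 4 rose and 1 fell, and without ERT2 replicate 2, 4 rose and 0 fell. Without CRE-ERT2 replicate 1, 2 rose and 1 fell, and with all probe sets tested 1 rose and 0 fell. The list median was 0.07. Beside Cish and Socs1, the survival gene Bcl2 rose from 12.01, 11.97 and 11.98 on the ERT2 arrays to 12.81, 12.71 and 12.82 on the CRE-ERT2 arrays. Its groups did not overlap, and the rise of 0.79 was 1.73-fold (limma adjusted p = 2.5e-05). Myc, a growth regulator, fell by 0.35 (limma adjusted p = 0.0304), a call lost without ERT2 replicate 1 (0.129) or 2 (0.0605), without CRE-ERT2 replicate 2 (0.0796) or 3 (0.176), and with all probe sets tested (0.178).

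Several other well-known STAT5 targets did not pass, and they are named here after their values were seen. The kinase gene Pim1 differed by -0.003 (limma adjusted p = 0.992), Socs2 by 0.05 (limma adjusted p = 0.864) and the cyclin gene Ccnd2 by 0.10 (limma adjusted p = 0.591). The related Pim2 differed by 0.36 without overlap of the groups, and did not pass (limma adjusted p = 0.0581).

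**Figure D3:**
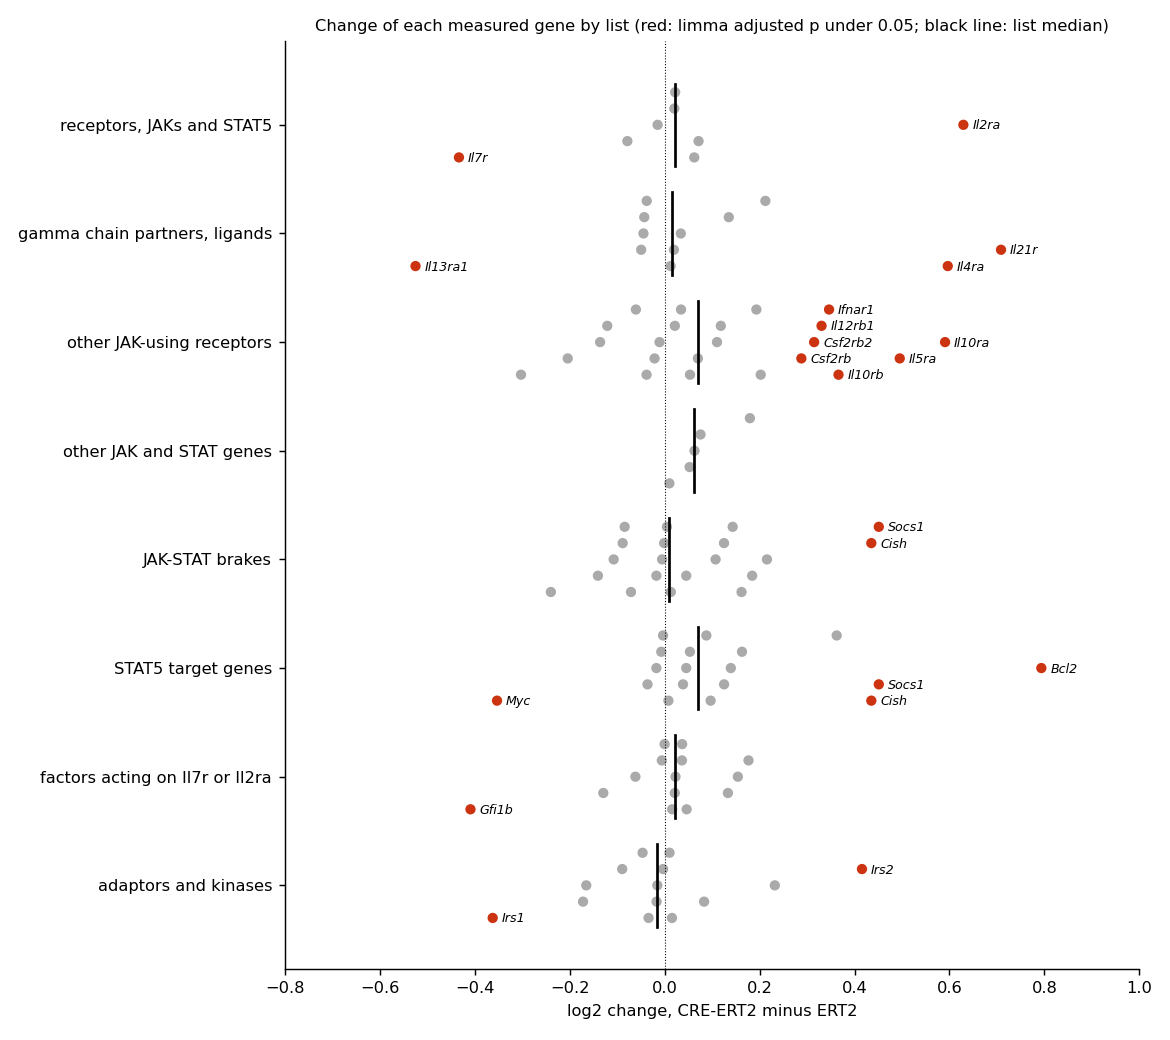
Log2 change, CRE-ERT2 minus ERT2 (horizontal axis), of each measured gene in the group of receptors, JAKs and STAT5 and in the 7 pathway lists (rows); red marks an adjusted p under 0.05 with limma and black lines the medians. Genes that passed lie on both sides of 0, and Bcl2 at 0.79 lies farthest to the right.

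A further list held transcription factors known to act on Il7r or Il2ra, or related to one that does. Of 14 measured, 0 rose, 1 fell and 13 missed the threshold. The list median was 0.02. Gfi1b, a repressor related to the Il7r regulator GFI1, fell by 0.41 (limma adjusted p = 0.0133), and did not pass without CRE-ERT2 replicate 3 (0.0947) or with all probe sets tested (0.124). Spi1, which encodes the ETS factor PU.1, differed by 0.15 (limma adjusted p = 0.285). Foxo1, which activates Il7r in B cell precursors and is named after its value was seen, differed by -0.06 (limma adjusted p = 0.769).

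Of 14 adaptor and kinase genes that link the receptors to other pathways, 1 rose, 1 fell and 12 missed the threshold. The list median was -0.02. Irs2, an insulin receptor substrate that also docks at the interleukin-4 receptor, rose by 0.42 (limma adjusted p = 0.00814). Its relative Irs1 fell by 0.36 (limma adjusted p = 0.0186) on the probe set kept, but the mean of its probe sets did not pass (0.191). Irs1 also lost its call without ERT2 replicate 1 (0.0831) or 2 (0.0529) and without CRE-ERT2 replicate 2 (0.0702) or 3 (0.109). With all probe sets tested, neither Irs2 (0.0917) nor Irs1 (0.125) passed.

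Markers of the labelled pre-B cell type were read next. Of 12 pre-B cell markers 11 were measured, among them the surrogate light chain gene Igll1 (14.40 ± 0.03 in ERT2 and 14.46 ± 0.005 in CRE-ERT2 arrays; SD, n = 3 each) and Pax5 (12.57 ± 0.08 and 12.57 ± 0.03). Dntt rose by 0.48 and Rag2 fell by 0.53 (limma adjusted p = 0.0037 and 0.0043), and 9 did not pass. With all probe sets tested Dntt (0.0640) and Rag2 (0.0911) did not pass either. Blnk, at 0.21 and without overlap of the groups, passed with a trended robust variance (limma adjusted p = 0.0170). The median of the pre-B cell markers was 0.09. The log2 of the summed pre-B cell marker level was 16.26 to 16.33 in the ERT2 and 16.37 to 16.39 in the CRE-ERT2 arrays. These ranges did not overlap. The summed level differed by 0.09, in the direction of Il2ra (0.63) and opposite to Il7r (-0.43). Its part in the result was not tested.

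Because CD25 also marks activated T cells, 14 T cell markers were read, and 0 passed with limma or had an unadjusted p under 0.05. Their summed level was 11.58 to 11.68 in the ERT2 and 11.57 to 11.63 in the CRE-ERT2 arrays. Of 8 natural killer, 10 myeloid and 5 erythroid and megakaryocyte markers measured, 0 passed with limma, while 2, 1 and 0 had an unadjusted p under 0.05. Without ERT2 replicate 3 the natural killer marker Klra8 (-0.34) passed. For T cell, natural killer, myeloid and erythroid markers the ranges of the summed level overlapped between groups. No value in this table is a true 0, so absence cannot be read from it, but 7 of the T cell, 7 of the natural killer, 6 of the myeloid and 4 of the erythroid markers were among the dimmest 33.3% of genes. Ptpn6 itself, the floxed gene, differed by -0.07 (95% confidence interval -0.24 to 0.10, limma adjusted p = 0.759), and whether its probe set lies in the floxed part is not known here.

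**Figure D4:**
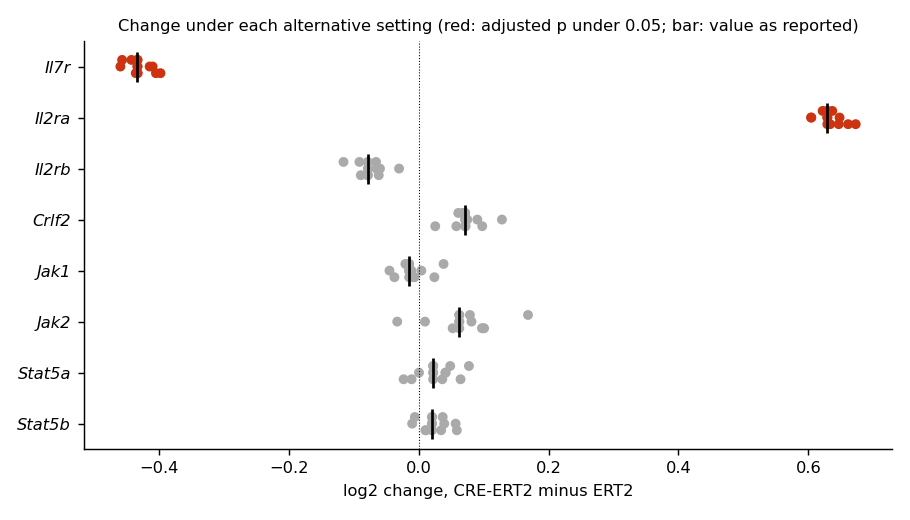
Log2 change, CRE-ERT2 minus ERT2 (horizontal axis), of the 8 measured genes under each alternative setting; points are settings, red where the adjusted p was under 0.05, and black bars the values as reported. Il7r stays between -0.46 and -0.40 and Il2ra between 0.60 and 0.67, while Jak1, Jak2, Stat5a and Stat5b have points on both sides of 0.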

How the data were processed

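Total RNA was labelled with biotin for Affymetrix arrays, per the labels' protocols. The authors deposited 1 log2 value per probe set and array; the submitters' processing notes list RMA and Partek 6.5, and give neither a role nor an order. The log2 scale was read from the values, which run from 2.93 to 14.9. Array medians were 7.90 to 7.98. Scanner files and detection calls were not used, so signal over background is unknown.

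Of 35556 probe sets, the platform annotation lists 1 gene for 21789, several for 1621 and none for 12146; only the first kind was used, with the highest-mean probe set per gene (19938 genes). Identifiers of 21698 single-gene probe sets matched a GRCm38.p6 gene table. Groups were compared with R 4.3.3 and limma 3.58.1 (a two-sided moderated test with Benjamini-Hochberg adjustment over all genes, threshold 0.05). Whether samples came from separate cultures is not labelled, so p-values reflect the spread of these samples alone, possibly technical. The fit was run on simulated data with known changes and independent errors drawn from its own spread, which does not address shared cultures.

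The members and lists were chosen with earlier results of these data known, and the promoter motifs after the sequences were seen. All members were named, and of each list up to 4 genes that passed with the largest change, or the smallest p up to 2 where fewer than 2 passed; other names are marked as chosen after their values were seen. Promoters come from RefSeq (GRCm38.p6); no source used here gives the build of the array design. Alternatives were a further quantile normalization, median centring, removal of the dimmest 33.3% of genes, averaged probe sets, a fit over all probe sets, array weights, a trended robust variance, a replicate block and omission of each array.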

Additional observations from a re-analysis of the deposited data

How the results depend on the processing

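Il7r and Il2ra, 2 of the 8 measured members, passed under each of the 14 alternatives tried, and no other member passed under any (Il2rb had 13, since it is among the dimmest genes). Il7r had limma adjusted p from 1.30e-05 to 0.0455 and Il2ra from 5.70e-07 to 0.0127, the highest when all probe sets were tested. Among members that did not pass, the sign of Jak1 changed after quantile normalization (0.024) and with centring (0.0041), and signs varied with the array left out: Jak1 ranged from -0.045 to 0.038, Jak2 from -0.033 to 0.17, Stat5a from -0.023 to 0.077 and Stat5b from -0.010 to 0.057. Against 914 genes as reported, 298 probe sets passed when all were tested, 1544 genes with a trended, robust variance and 453 to 979 with an array left out. Fitting the replicate number as a block left 589 calls, with limma adjusted p of 0.0159 for Il7r and 0.00149 for Il2ra, and 3 receptors that use JAK kinases higher in place of 7. Whether same-numbered arrays share more than a number is not labelled. Their deviations from the group means correlated at -0.11, -0.37 and -0.072, and no array correlated best with its own number. The highest values were 0.45 for ERT2 replicate 2 with CRE-ERT2 replicate 1 and 0.40 for ERT2 replicate 3 with CRE-ERT2 replicate 2. With 3 arrays per group the deviations depend on each other, so these correlations cannot show whether arrays were paired. Of the pathway genes, 17 passed as reported, 3 when all probe sets were tested and 7 to 18 with an array left out. The cause of these differences was not tested. Testing all probe sets adjusts over more features and also fits the variances anew over all of them, so both steps differ. Leaving out an array removes a sample. The number of arrays and the unknown signal over background limit every value.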
